A study of Mus musculus with 401 samples.

Results

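Insulin and insulin-like growth factors act on the somatic cells of the growing follicle and, through them, on the oocyte. Described here are 9 genes of the insulin, IGF, PI3K and FOXO pathway (Igf1, Igf1r, Insr, Irs1, Irs2, Pdpk1, Akt1, Foxo1 and Foxo3), found by their Ensembl identifiers among the 43633 gene identifiers of 2 count tables, and all 9 passed the filter on low counts in every comparison. The libraries were made by RamDA-seq, a full-length total RNA method, from single oocytes of fully grown follicles and from the pool of cumulus cells around each oocyte. All mice were B6D2F1 (C57BL/6 x DBA/2) females. The first set held Young (2 months), Middle (9 months) and Old (14 months) mice fed ad libitum and CR mice (9 months, calorie restriction begun in adulthood), all after hyperovulation. The second set held ad libitum mice of 2, 4, 9 and 14 months after hyperovulation and mice of 2 months without it. Hyperovulation was by equine chorionic gonadotropin or CARD HyperOva, and which mouse had which agent is not given in the sources used here. Ovaries were put into medium with the phosphodiesterase inhibitor IBMX.

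In this pathway IGF1 and insulin bind the receptors IGF1R and INSR, which recruit the adaptors IRS1 and IRS2. PI3K then makes the membrane lipid that brings PDPK1 and AKT1 together, and PDPK1 phosphorylates AKT1. AKT phosphorylates FOXO1 and FOXO3 and so keeps these transcription factors out of the nucleus. FOXO3 restrains the activation of primordial follicles, FOXO1 is a factor of granulosa cells, the lineage of cumulus cells, and IGF1 enhances the response of granulosa cells to follicle-stimulating hormone. Proteins and their phosphorylation were not measured.

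Irs2 is the member whose cumulus level was called in 2 of the comparisons below, and the 250 bases before its RefSeq start are therefore shown (GRCm38.p6, chr8:11008930-11009179, minus strand). This start lies 471 bases upstream of the 5′ end of the GENCODE gene. Capitals mark an E-box (CACGTG), whose last base lies 39 bases before the start, and TGTTTTG, the reverse complement of the insulin response sequence CAAAACA that FOXO factors can bind, whose last base lies 31 bases before it.
Irs2: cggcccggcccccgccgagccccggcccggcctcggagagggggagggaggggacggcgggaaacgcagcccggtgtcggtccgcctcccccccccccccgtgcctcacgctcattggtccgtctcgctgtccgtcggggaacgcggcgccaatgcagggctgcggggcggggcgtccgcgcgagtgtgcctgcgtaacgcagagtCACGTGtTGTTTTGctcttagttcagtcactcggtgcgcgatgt
Of 8 members with a promoter in the RefSeq table, Irs1 and Irs2 held both of these motifs and Akt1 held the FOXO site GTAAACA, on either strand. Of 32851 promoter windows in the table, 5.56% held CAAAACA, 6.02% held CACGTG and 3.17% held GTAAACA. A match is a description of the letters, and binding was not measured.

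Counts were summed over the complexes of a mouse, and n is the number of mouse labels. Young had 2, Middle 4, CR 3 and Old 2, of which Old1_2 joins 2 mice. The second set had 5 mice at 2 months, 8 at 4 months, 4 at 9 months, 5 at 14 months and 8 at 2 months without hyperovulation. Oocyte libraries held 559305 to 4536690 counts and cumulus libraries 510029 to 2501005, and CR oocytes were deepest, with a median of 3578882 counts against 2332126 in Middle oocytes. Levels of a gene are given as CPM, its counts scaled to library size. In 1 Middle3 complex the oocyte library had cumulus markers at 132% of the level of the median cumulus library and oocyte markers at 0.886% of the level of the median oocyte library. That complex was left out, and Middle3 rests on the 1 complex that remains. In the other oocyte libraries the 10 cumulus markers reached up to 27.1% of the cumulus level in the first set and up to 2.28% in the second. Sums over a pool of cumulus cells cannot tell fewer cells of a type from less RNA per cell.

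Oocytes and cumulus cells expressed different members of the pathway most strongly. Levels of different genes are compared per length, as RPKM (reads scaled to gene length and library size) calculated from TMM-normalized counts. In cumulus cells of the second set the transcription factor Foxo1 was highest, with a median of 137.3 RPKM over 30 mice. Igf1r (38.99 RPKM), Igf1 (35.7 RPKM), Foxo3 (30.4 RPKM) and Akt1 (24.7 RPKM) followed, then Irs2 (18.6 RPKM), Irs1 (13.3 RPKM), Pdpk1 (10.5 RPKM) and Insr (9.18 RPKM). Foxo1 lay above Igf1r in 29 of 30 mice, and the ranges of all neighbours in this order overlapped.

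In oocytes of the second set the order was led by Foxo3 at 143.5 RPKM, above Foxo1 at 58.4 RPKM in 30 of 30 mice with no overlap. The kinases Pdpk1 (24.5 RPKM) and Akt1 (23.5 RPKM) came next and overlapped, with Pdpk1 above Akt1 in 18 of 30 mice. Igf1r (2.62 RPKM) and Insr (0.751 RPKM) were lower and overlapped with no neighbour. Igf1 (0.118 RPKM), Irs1 (0.0623 RPKM) and Irs2 (0.00887 RPKM) were close to 0 and overlapped with each other.

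**Figure D1:**
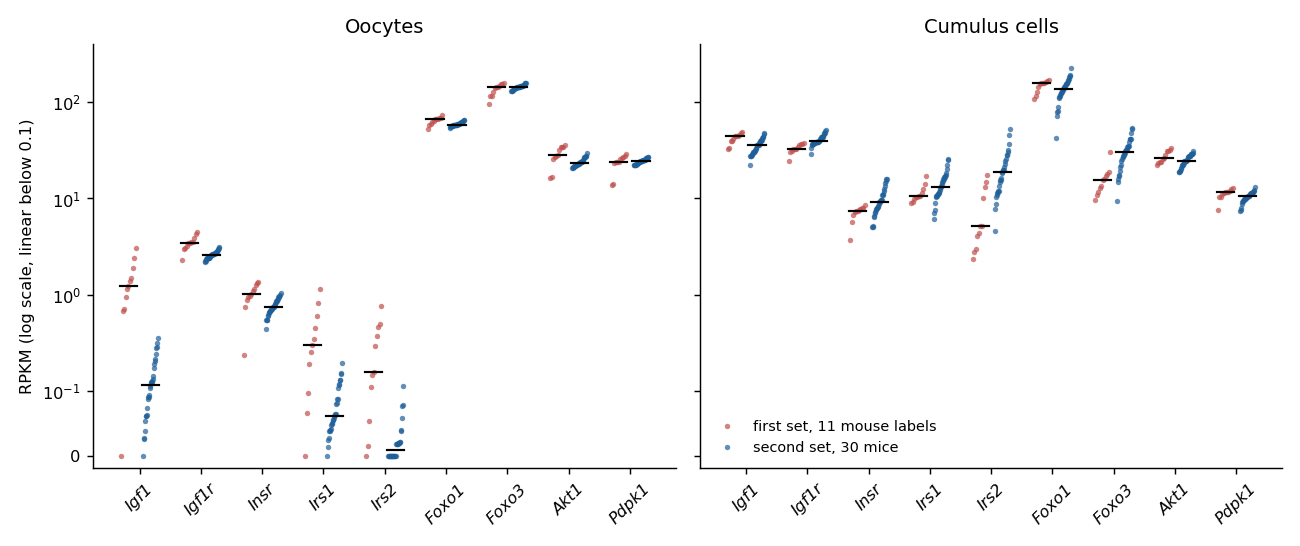
RPKM of the 9 genes in oocytes and cumulus cells (log axis, linear below 0.1), 1 point per mouse label, first set red and second set blue, points sorted by level, with a bar at the median. Foxo3 leads in oocytes and Foxo1 in cumulus cells in both sets, and Igf1, Irs1 and Irs2 are the lowest members in oocytes of the second set.

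The first set had the same leading gene in each cell type. In its cumulus cells Foxo1 (157.7 RPKM, median of 11 mouse labels) lay above Igf1 (44.2 RPKM) in 11 of 11, and in its oocytes Foxo3 (144 RPKM) lay above Foxo1 (65.9 RPKM) in 11 of 11, both without overlap. Akt1 (28.1 RPKM) was above Pdpk1 (24.2 RPKM) in 10 of 11 there, the other way round than in the second set. Irs2 was the lowest cumulus member, at 5.21 RPKM. Within groups of the second set the coefficient of variation of Foxo1 was 3.79% to 5.77% in oocytes and 10.9% to 46.2% in cumulus cells, highest at 2 months without hyperovulation (from 368 to 1502 CPM, n = 8). In the first set it was 4.25% to 18.4% in oocytes and 3.47% to 25.2% in cumulus cells, and in Old mice it was higher in oocytes.

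Between oocytes and cumulus cells all 9 members were called in both sets, that is, they had a Benjamini-Hochberg adjusted p under 0.05 in edgeR's quasi-likelihood test on mouse sums. The background was 81.4% of genes called in the first set and 88.4% for the other set, so the count alone is near the background. The ligand and the adaptors were much lower in oocytes of the second set, with log2 fold changes of -7.49 (SE 0.13) for Igf1, -7.03 (SE 0.16) for Irs1 and -9.33 (SE 0.20) for Irs2. The receptors differed less, at -3.46 (SE 0.05) for Igf1r and -3.12 (SE 0.09) for Insr, and Foxo1 was at -0.68 (SE 0.08). Higher in oocytes were Foxo3 with a log2 fold change of 2.76 (SE 0.10), Pdpk1 with 1.73 (SE 0.04) and Akt1 with 0.44 (SE 0.05). In the first set the directions were the same, from -4.12 (SE 0.29) for Igf1 to 3.95 (SE 0.18) for Foxo3.

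Akt1 depends on the scaling. Its mean CPM in oocytes was 95.9% of that in cumulus cells in the second set and 104% in the first, while the fit called it higher in oocytes in both. The median log2 fold change over all genes was -0.31 in the second set and 0.03 in the first, and RLE normalization moved it to -0.44 and -0.35. Under RLE the log2 fold change of Akt1 was 0.30 and 0.51, and that of Foxo1 was -0.82 and -0.74.

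The low oocyte levels were set beside the cumulus RNA that oocyte libraries carried. In the second set the 10 cumulus markers, summed, had 1.37% of their cumulus level in oocytes, and single markers had 0.151% to 11.1%. Much of the summed marker level in oocytes came from Nr5a2, with a median of 58.9 CPM per oocyte library. Igf1 (0.386%) and Irs1 (0.529%) lay under the summed markers and inside the range of single ones, and Irs2 (0.0955%) lay under every single marker. Whether oocytes express Igf1 and Irs1 at this level was not tested. Irs2 had 32.5 counts over all 127 oocyte libraries and was at 0 in 105 of them. Igf1r (6.43%) and Insr (7.90%) were above the summed markers and inside the range of single ones. By library medians, Kitl (7.79 CPM in oocytes, 67.2 CPM in cumulus cells) and Nr5a2 set the upper end of this range. No oocyte library lacked either gene. The other markers were much lower relative to cumulus cells, such as Inha (10.7 and 3156.7 CPM) and Fst (0.977 and 924.9 CPM). A sum without Kitl and Nr5a2 was not calculated. Whether oocytes express Kitl, Nr5a2, Igf1r and Insr themselves was not tested. In the first set the summed markers stood at 4.03%, again above Igf1 (3.25%), Irs1 (3.44%) and Irs2 (3.49%). Foxo1, at 43.4% in both sets, was above the highest single marker of either. These percents use CPM scaled within each cell type and differ from the fit. There the oocyte level of Foxo1 was 0.770 times that of cumulus cells in the first set and 0.625 times in the second.

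**Figure D2:**
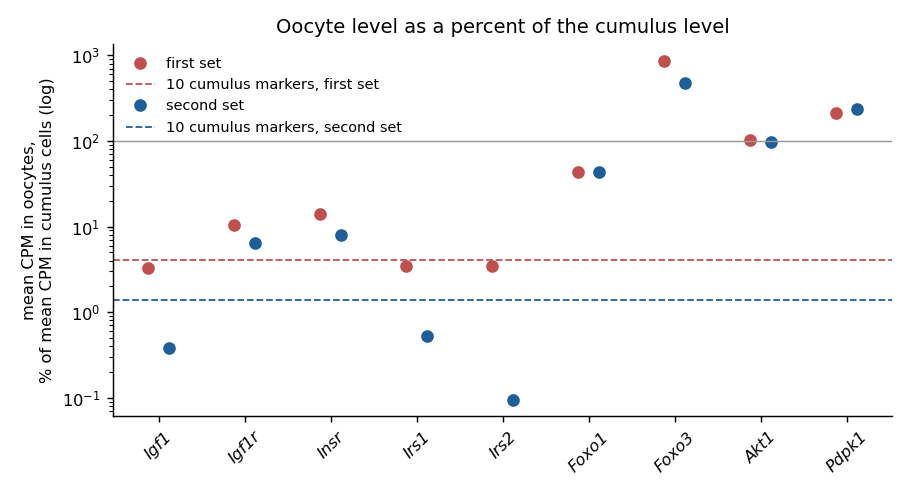
Mean CPM in oocytes as a percent of mean CPM in cumulus cells (log axis) for the 9 genes, first set red and second set blue, with a dashed line for the 10 summed cumulus markers of each set and a grey line at 100%. Igf1, Irs1 and Irs2 lie under the dashed line of their set, Igf1r and Insr above it, and Foxo3 and Pdpk1 above 100%. CPM are scaled within each cell type, so the percents differ from the fitted fold changes.

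Some members overlap other genes of the count tables (coordinates of GRCm38, GENCODE vM21), and the counting is not stated to use strand. Annotated genes without a row in the count tables were not looked at. Irs2 (chromosome 8, 10984681 to 11008458, minus strand) overlaps 9530052E02Rik on the other strand at its 5′ end. Irs1 (chromosome 1, 82233101 to 82291416, minus strand) overlaps Gm9747 on the other strand. Foxo1 (chromosome 3, 52268336 to 52353221, plus strand) overlaps Gm20402 on the other strand and Gm38034 on its own. Of the nonzero counts of the second set 36.7% were not whole for Irs2, 43.2% for Irs1 and 55.7% for Foxo1, beside 35.1% over all genes. Values of these genes are uncertain, though Irs2 is near the share over all genes. How much of a count was not whole was not measured. Insr (chromosome 8, 3122061 to 3279617, minus strand) overlaps Gm16180 and Vmn2r-ps88 and had 0.392% such counts. Igf1 (chromosome 10, 87858265 to 87937042, plus strand) overlaps Igf1os, and Akt1 (chromosome 12, 112653821 to 112674884, minus strand) overlaps Mir6939. Igf1r (chromosome 7, 67952827 to 68233668, plus strand), Foxo3 (chromosome 10, 42181841 to 42276755, minus strand) and Pdpk1 (chromosome 17, 24073680 to 24150924, minus strand) overlap no other gene of the count tables.

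Diet was compared between Middle and CR mice. CR mice were kept in single housing with a daily restricted meal, and the housing of ad libitum mice is not given. Housing and meal timing cannot be told apart from calorie restriction here. CR libraries were also deeper in cumulus cells, with a median of 2019007 counts against 1091806 in Middle. Of the deposited RPKM values of CR libraries 0.762% followed from the counts, against 100% in ad libitum libraries, for a reason not given. In oocytes 2061 of 27072 genes were called, 7.61% of those tested, and 0 of the 9 members. Of the members 2 had an unadjusted p under 0.05 in edgeR, beside 6193 of the 27072 genes, and DESeq2 called 0 members. Irs2 had 4.83, 1.01, 0 and 2.94 CPM in the oocytes of Middle1 to Middle4 and 0.0931, 0.702 and 0.934 CPM in those of CR1 to CR3. Middle3 rests on 1 oocyte, in which 3 counts would be 1.39 CPM, and the groups overlap through it. The log2 fold change was -1.94 (SE 0.72, adjusted p = 0.134, edgeR), and without Middle3 it was -2.09 (SE 0.59, adjusted p = 0.0388). Cumulus markers stood at 6.04% of their cumulus level in Middle1 and 6.14% in Middle4, the mice with the highest Irs2, and at 2.68% to 4.95% in CR mice. Their part in the difference was not tested.

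Foxo3 had 1199, 1092, 967 and 1152 CPM in Middle oocytes and 879, 884 and 1061 CPM in CR oocytes. CR1 and CR2 lay below all Middle mice and CR3 inside their range, with a log2 fold change of -0.27 (SE 0.11, adjusted p = 0.176, edgeR). Foxo1 had 571, 553, 510.3 and 579.5 CPM in Middle and 590.1, 582.5 and 630.0 CPM in CR oocytes. These groups did not overlap, but the log2 fold change was 0.08 (SE 0.09, adjusted p = 0.671, edgeR). Irs1 had a log2 fold change of -1.19 (SE 0.68, adjusted p = 0.329, edgeR), and Igf1, Igf1r, Insr, Akt1 and Pdpk1 had values from -0.15 to 0.35. With libraries in place of mice as units 28.2% of all genes were called, and of the members Irs2 (-1.63, SE 0.55, adjusted p = 0.0206, edgeR) and Foxo3 (-0.24, SE 0.08, adjusted p = 0.016, edgeR). That test takes oocytes of 1 mouse for independent replicates.

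**Figure D3:**
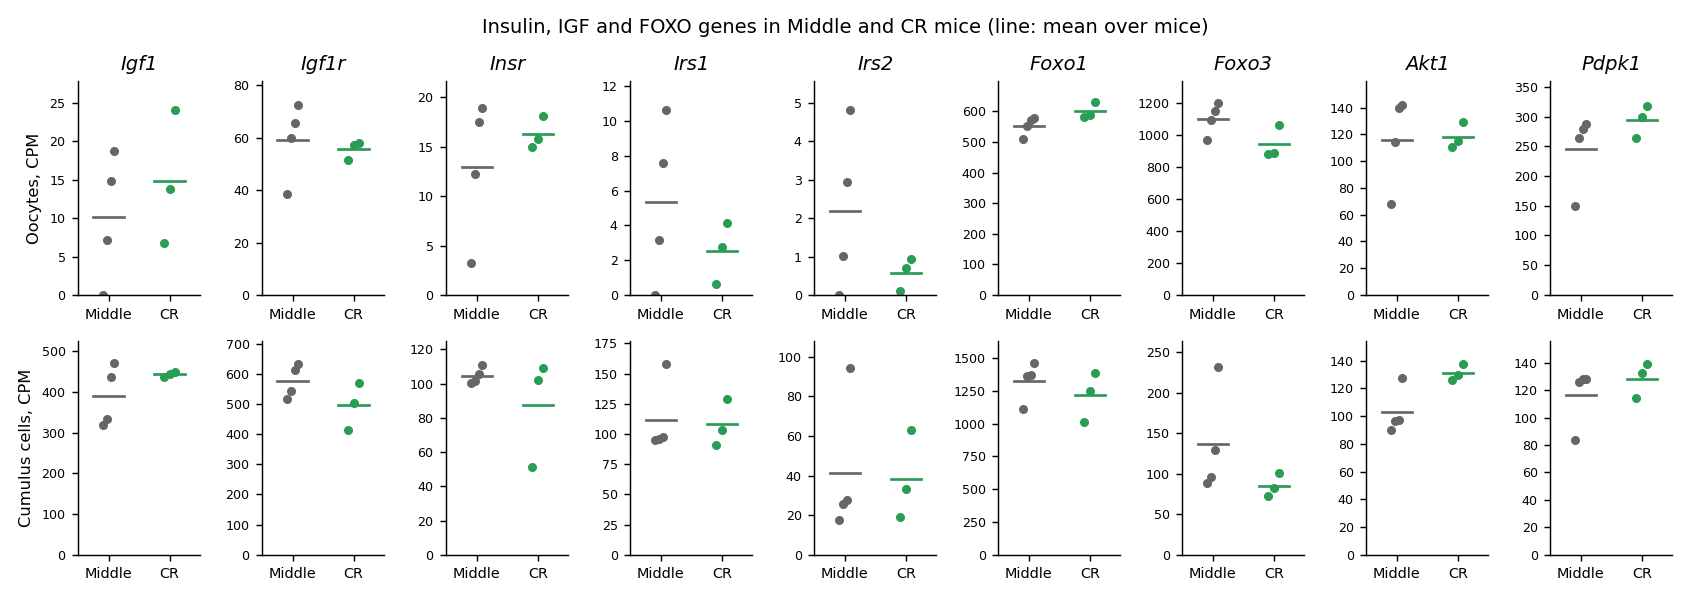
CPM of the 9 genes per mouse in Middle (grey, n = 4) and CR (green, n = 3) oocytes and cumulus cells, each axis from 0, with a line at the mean. The groups overlap in every panel but that of Foxo1 in oocytes, and Middle3 is the lowest mouse for Pdpk1 in both cell types.

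In cumulus cells 0 of 26487 genes (0%) were called between Middle and CR mice by edgeR, 2118 had an unadjusted p under 0.05, and DESeq2 called 202. Of the members 0 were called by either tool, and 2 had an unadjusted p under 0.05 in edgeR. Akt1 had 90.2, 97.4, 96.2 and 127.7 CPM in Middle and 129.8, 137.8 and 126.0 CPM in CR mice. Middle4 lay inside the CR range and the other Middle mice below it, with a log2 fold change of 0.34 (SE 0.14, adjusted p = 0.595, edgeR). Foxo3 had 232, 96.5, 129.8 and 89.1 CPM against 72.8, 82.8 and 101 CPM, a log2 fold change of -0.69 (SE 0.30, adjusted p = 0.611, edgeR). Middle1 stood highest for Foxo3.

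The ligand and the receptors overlapped between the diets in cumulus cells. Igf1 was at 391 ± 75.0 CPM (SD, n = 4) in Middle and 444 ± 5.89 CPM (SD, n = 3) in CR mice, and Igf1r at 576 ± 55.7 CPM (SD, n = 4) and 496 ± 78.4 CPM (SD, n = 3). Insr was at 105 ± 4.56 CPM (SD, n = 4) and 87.6 ± 31.4 CPM (SD, n = 3), with CR1 at 51.6 CPM. With libraries as units 3.45% of all genes were called and, of the members, Akt1 (0.35, SE 0.08, adjusted p = 0.0103, edgeR). The effect of CR in oocytes minus that in cumulus cells was called for 0 of 9 members on mouse sums and for 0.0921% of all genes, and DESeq2 also called 0 members. No member had an unadjusted p under 0.05 in that test, and the smallest adjusted p was 0.605 (Foxo3, edgeR interaction term). The median over all genes was 0.20 in this test and -0.07 under RLE normalization, and no member is read as higher or lower from it.

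Of 83 further genes of the pathway 78 were tested in oocytes between Middle and CR mice, and 8 were called, 6 higher and 2 lower in CR. With 7.61% of all genes called, this count is near the background. The median log2 fold change of the list was 0.05, against -0.01 over all genes. Sos2, which links receptors to RAS, rose from 25.4 ± 2.00 CPM (SD, n = 4) in Middle to 44.7 ± 4.93 CPM (SD, n = 3) in CR oocytes. Gsk3b, a kinase that AKT inhibits, rose from 82.6 ± 13.6 to 141 ± 7.27 CPM (SD). Phlpp2, a phosphatase of AKT, rose from 63.0 ± 12.3 to 108 ± 7.97 CPM (SD). None of these 3 overlapped between the groups.

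Pik3cb, a catalytic PI3K subunit, rose from 45.9 ± 2.42 to 68.0 ± 2.52 CPM (SD) in CR oocytes. Usp7, a deubiquitinase with FOXO proteins among its substrates, rose from 525 ± 21.9 to 764 ± 35.7 CPM (SD). Cdkn1b, a cell cycle inhibitor and FOXO target, fell from 58.0 ± 2.36 to 40.4 ± 1.75 CPM (SD). Groups did not overlap for these either, and adjusted p ran from 0.00703 (Sos2) to 0.0181 (Pik3cb) over the 6 genes (edgeR). With all deposited libraries, the excluded Middle3 complex among them, 0 of 78 and 4 genes in all were called, and 3 to 11 of the list were called with 1 mouse left out (3 without CR2, 4 without CR3, 5 without CR1 or Middle2, 11 without Middle3). Sos2, Gsk3b and Usp7 were called in each of these fits, while Phlpp2 was lost without CR2 or CR3, Pik3cb without CR1, CR2 or Middle2, and Cdkn1b without CR1, CR2, CR3 or Middle4. In cumulus cells 0 of 69 were called by edgeR, 12 had an unadjusted p under 0.05, and DESeq2 called 0.

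Age was compared in both sets. The comparisons of a set share its youngest mice, and the Middle mice also stand in the comparison with CR. From Young to Middle 0% of genes were called in oocytes and 0% in cumulus cells, with 667 and 792 at an unadjusted p under 0.05 and 0 and 8 called by DESeq2. Of the members 0 were called by either tool in either cell type, and 1 in each had an unadjusted p under 0.05 in edgeR. In cumulus cells Irs2 had a log2 fold change of -1.19 (SE 0.53) from Young to Middle and was not called. Without Middle1 it was -2.05 (SE 0.24, adjusted p = 0.0438, edgeR).

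From Young to Old 0.431% of genes were called in cumulus cells, and Irs2 was the single member among them. It had 111 and 82.7 CPM in Young and 32.96 (Old1_2) and 14.9 (Old3) CPM in Old cumulus cells. The groups did not overlap, and the log2 fold change was -1.95 (SE 0.30, adjusted p = 0.0334, edgeR), and from -2.68 to -1.55 with 1 mouse label left out. Those fits leave an arm of 1 label, which is assumed to vary like the other group, so they say little about stability. Middle mice had 94.4, 17.7, 25.8 and 27.7 CPM and CR mice 19.1, 33.04 and 63.3 CPM. Of these only Middle1 lay in the Young range. Summed cumulus markers were at 6529 and 8110 CPM in Young and 7561 and 8320 CPM in Old cumulus cells. Summed theca or stroma markers were at 28.7 and 22.6 CPM in Young and 17.3 and 9.505 CPM in Old, and leukocyte markers at 2.72 and 3.52 CPM and at 4.99 and 7.92 CPM, both without overlap. Their part in the Irs2 difference was not tested. With libraries as units 3.72% of genes were called, and Irs2 again alone of the members.

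In the second set Irs2 was not called between the same ages. It had 97.6, 132.9, 76.3, 116.7 and 102 CPM in cumulus cells at 2 months and 75.2 ± 11.3 CPM (SD, n = 5, from 66.1 to 94.7 CPM) at 14 months. The groups overlapped, with a log2 fold change of -0.47 (SE 0.16, adjusted p = 0.394, edgeR). At 4 months Irs2 ran from 28.95 to 192 CPM (median 109, n = 8) and at 9 months from 48.7 to 125 CPM (median 89.7, n = 4). The age effect of the first set minus that of the second was -1.51 (SE 0.34) for Irs2, with an unadjusted p of 0.000159 and an adjusted p of 0.404 (edgeR interaction term), where 0.0146% of genes and 0 members were called. This test was added after the data were seen.

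In the second set no member was called at any age. Called were 0% of genes in oocytes and 0% in cumulus cells from 2 to 4 months, 0.0784% and 0.0081% from 2 to 9 months, and 0.177% and 0.159% from 2 to 14 months, and DESeq2 also called 0 members each time. At an unadjusted p under 0.05 in edgeR there were 0, 0 and 1 members in oocytes and 0, 2 and 4 in cumulus cells at 4, 9 and 14 months. Of all genes, 24221 to 26615 tested, there were 1243, 1773 and 2382 in oocytes and 1789, 2124 and 1989 in cumulus cells. Igf1 in cumulus cells was at 286 ± 48.9 CPM at 2 months and 388 ± 26.1 CPM at 14 months (SD, n = 5), a log2 fold change of 0.45 (SE 0.13, adjusted p = 0.255, edgeR). Irs1 was at 158.5 ± 41.4 and 103 ± 16.4 CPM (SD, n = 5), a log2 fold change of -0.62 (SE 0.17, adjusted p = 0.205, edgeR). Both genes overlapped between the ages. With libraries as units, where 1.47% of genes were called, Igf1 (0.47, SE 0.09) was called higher and Irs1 (-0.58, SE 0.16) and Foxo1 (-0.33, SE 0.09) lower at 14 months. Foxo1 went the other way in cumulus cells of the first set, from 935 and 1341 CPM in Young to 1370 and 1438 CPM in Old. That log2 fold change was 0.30 (SE 0.16, adjusted p = 0.609, edgeR on mouse sums). Igf1 (0.12, SE 0.13) and Irs1 (-0.19, SE 0.16) kept their signs there, and neither was called.

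Oocyte levels of the kinases and FOXO factors hardly moved with age in the second set. From 2 months to 4, 9 and 14 months the log2 fold changes of Foxo1, Foxo3, Akt1 and Pdpk1 lay between -0.14 and 0.03, with SE of 0.04 to 0.08. Irs2 was at 0 in the oocytes of all 5 mice of 14 months, where 3 counts per mouse are 0.319 to 0.675 CPM, and no fold is given.

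Of the further pathway genes (83, described with the diet above) 3 of 68 were called from Young to Old in cumulus cells, beside 0.431% of all genes, and they are named after their values were seen. Txnip, a thioredoxin inhibitor and FOXO target, fell from 627.6 ± 1.56 CPM to 301.4 ± 29.2 CPM (SD, n = 2 labels each). Cited2, a transcriptional coregulator and FOXO target, fell from 35 ± 8.86 to 13.9 ± 2.05 CPM (SD), and Stc1, an inhibitor of IGF binding protein proteases, rose from 3.92 ± 0.867 to 13.4 ± 1.202 CPM (SD). Cited2 and Stc1 were not called without Old1_2 or without Young2. From 2 to 14 months 3 of 69 were called in cumulus cells of the second set, beside 0.159% of all genes. The FOXO targets Pdk4, a mitochondrial kinase, and Bcl6, a transcriptional repressor, fell from 84.8 ± 32.9 to 32.4 ± 10.97 CPM and from 38.4 ± 7.503 to 17.9 ± 2.69 CPM (SD, n = 5). Pappa, a protease of IGF binding proteins, rose from 2.03 ± 1.83 to 46.2 ± 71.4 CPM (SD, n = 5), with 1 mouse of 14 months at 172.7 CPM. With 1 mouse left out 0 to 3 of the list were called. Bcl6 was lost without 2mo2, 14mo39 or 14mo41, Pdk4 was kept only without 2mo1 or 2mo35, and Pappa only without 14mo40 or 14mo41. From Young to Middle and from 2 to 4 or 9 months, and in oocytes at every age, 0 were called by edgeR on all mice, with 0 to 13 at an unadjusted p under 0.05, and DESeq2 called 2 from 2 to 9 months in cumulus cells and 0 in the others. Over all genes 667 to 2382 had an unadjusted p under 0.05 in these comparisons (edgeR). With 1 mouse label left out, 2 of the list were called from 2 to 9 months in cumulus cells, without 9mo22. From Young to Middle in cumulus cells 1 was called, without Middle1. Over all genes the fits with 1 label left out called 0 to 54 and 0 to 7 in these 2 comparisons. Calls also appeared from Young to Old in oocytes without Old3, which leaves 1 Old label, and are not counted.

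In oocytes of the first set 0% of genes were called from Young to Old, with 2257 at an unadjusted p under 0.05 and 37 called by DESeq2. Of the members 0 were called by either tool and 3 had an unadjusted p under 0.05 in edgeR. Akt1 had 146 and 140.4 CPM in Young and 67.3 (Old1_2) and 105 (Old3) CPM in Old oocytes, without overlap, a log2 fold change of -0.73 (SE 0.25, adjusted p = 0.513, edgeR). With libraries as units 6.65% of genes were called, and of the members Akt1 (-0.74, SE 0.18, adjusted p = 0.0236, edgeR). Without Old3 the log2 fold changes were 1.55 for Igf1, 1.95 for Irs1, -1.09 for Akt1, -0.85 for Pdpk1 and -0.61 for Foxo3. Without Old1_2 that of Irs2 was -2.77. Values of the other members in these fits are not given. In these fits the lone Old label is assumed to vary like the Young mice, so no call is read from them. Cumulus markers were at 6.85% of their cumulus level in Old1_2 oocytes, against 3.20% in Old3 and 2.46% and 3.20% in Young oocytes. Their part in these values was not tested.

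Hyperovulation came with lower Irs2 and Insr in cumulus cells, where 0.863% of genes were called. Irs2, an adaptor of both receptors, was at 142 CPM (lowest), 189 CPM (median) and 331 CPM (highest) in the 8 mice of 2 months without hyperovulation and at 76.3 to 132.9 CPM in the 5 mice with it. The groups did not overlap, and the log2 fold change was -1.03 (SE 0.20, adjusted p = 0.0228, edgeR). Insr, the insulin receptor, was at 98.4, 179.6 and 216 CPM (lowest, median and highest, n = 8) without and at 111.8, 109.4, 87.4, 126.7 and 98.2 CPM with hyperovulation. Of the mice without hyperovulation only 2moNoH6 lay in the range of those with it. The log2 fold change of Insr was -0.71 (SE 0.16, adjusted p = 0.0489, edgeR).

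**Figure D4:**
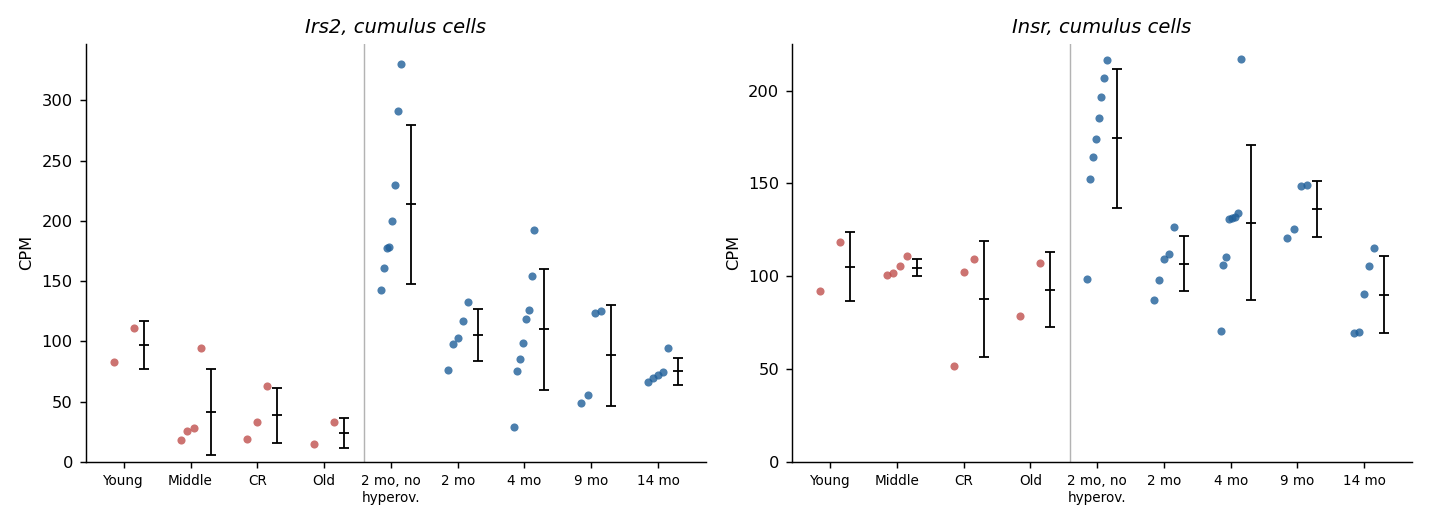
CPM of Irs2 and Insr in cumulus cells per mouse label, first set red and second set blue, with mean ± SD beside the points and axes from 0. For Irs2 the mice of 2 months without hyperovulation lie at 142 to 331 CPM, above all mice of 2 months with it, and both Young labels lie above both Old labels.

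Labels of the second set begin with B1 or B2 and do not say what this prefix stands for. Both differences were present within each prefix. With B1 Irs2 was at 240.0 ± 83.6 CPM (SD, n = 4) without and 102 ± 28.6 CPM (SD, n = 3) with hyperovulation. With B2 it was at 188 ± 36.9 CPM (SD, n = 4) and 109.5 ± 10.1 CPM (SD, n = 2). Insr was at 163 ± 50.4 CPM (SD, n = 4) and 103 ± 13.5 CPM (SD, n = 3) with B1. With B2 Insr was at 185.5 ± 19.9 CPM (SD, n = 4) and 112.5 ± 20.2 CPM (SD, n = 2). Leaving out 1 mouse in turn kept Irs2 called in 10 of 13 fits, and it was lost without 2mo1, 2mo34 or 2mo36 (adjusted p up to 0.083, edgeR). Insr was kept in 2 of 13, those without 2moNoH6 or 2moNoH7 (adjusted p up to 0.155, edgeR). The 10 cumulus markers summed to 3841 to 6785 CPM without and 5597 to 7886 CPM with hyperovulation, and 6 theca or stroma markers to 13.7 to 52.3 CPM and 5.81 to 22.8 CPM. Their part in the differences was not tested.

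The other 7 members were not called in cumulus cells on mouse sums. Igf1r was at 650.0 to 867 CPM (median 736, n = 8) without and 562 to 646 CPM (n = 5) with hyperovulation. These ranges did not overlap, and the log2 fold change of -0.29 (SE 0.10, adjusted p = 0.217, edgeR) was called by DESeq2 (-0.30, SE 0.10, adjusted p = 0.0403). Irs1 had a log2 fold change of 0.53 (SE 0.27), Foxo1 of 0.52 (SE 0.26) and Igf1 of -0.36 (SE 0.16). With libraries as units 12.1% of genes and 6 of 9 members were called, Igf1, Igf1r, Insr and Irs2 lower and Irs1 and Foxo1 higher with hyperovulation.

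In oocytes 0% of genes were called with hyperovulation, with 1064 at an unadjusted p under 0.05 and 0 called by DESeq2. Of the members 0 were called by either tool and 0 had an unadjusted p under 0.05. Insr was at 11.1 ± 2.31 CPM (SD, n = 8) without and 9.70 ± 1.27 CPM (SD, n = 5) with it. The effect in oocytes minus that in cumulus cells was 0.58 (SE 0.23, adjusted p = 0.45, edgeR interaction term) for Insr, so a difference between the cell types was not shown. In that test 0.148% of genes and 0 members were called, and DESeq2 called 0 members. An unadjusted p under 0.05 in edgeR was found for 1 member and for 2437 of 31845 genes. For Irs2 the SE was 3.38, with oocyte counts near 0.

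Of the 83 further pathway genes 71 were tested in cumulus cells, and 3 were called with hyperovulation, beside 0.863% of all genes. Their median log2 fold change was -0.05, against -0.03 over all genes. Pik3ip1, an inhibitor of PI3K, fell from 17.6 ± 7.10 CPM (SD, n = 8) to 4.16 ± 1.77 CPM (SD, n = 5), with adjusted p = 0.0118 (edgeR), and was called in all 13 fits with 1 mouse left out. Gadd45a, a stress-response gene and FOXO target, fell from 30.8 ± 17 to 9.71 ± 1.099 CPM (SD), with adjusted p = 0.0306 (edgeR). Igfbp5, a binding protein of IGFs, rose from 33.8 ± 18.7 to 154 ± 143 CPM (SD), with adjusted p = 0.0399 (edgeR) and overlapping groups. Gadd45a was lost without 2mo1, 2mo2, 2mo34, 2mo35, 2mo36, 2moNoH8, 2moNoH12 or 2moNoH13, and Igfbp5 without 2mo2, 2mo34, 2mo36, 2moNoH9, 2moNoH10, 2moNoH11, 2moNoH12 or 2moNoH13. For Pik3ip1 the effect in oocytes minus that in cumulus cells was 2.13 (SE 0.35, adjusted p = 0.00273, edgeR interaction term). In oocytes 0 of 76 were called, 5 had an unadjusted p under 0.05, and DESeq2 called 0.

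**Figure D5:**
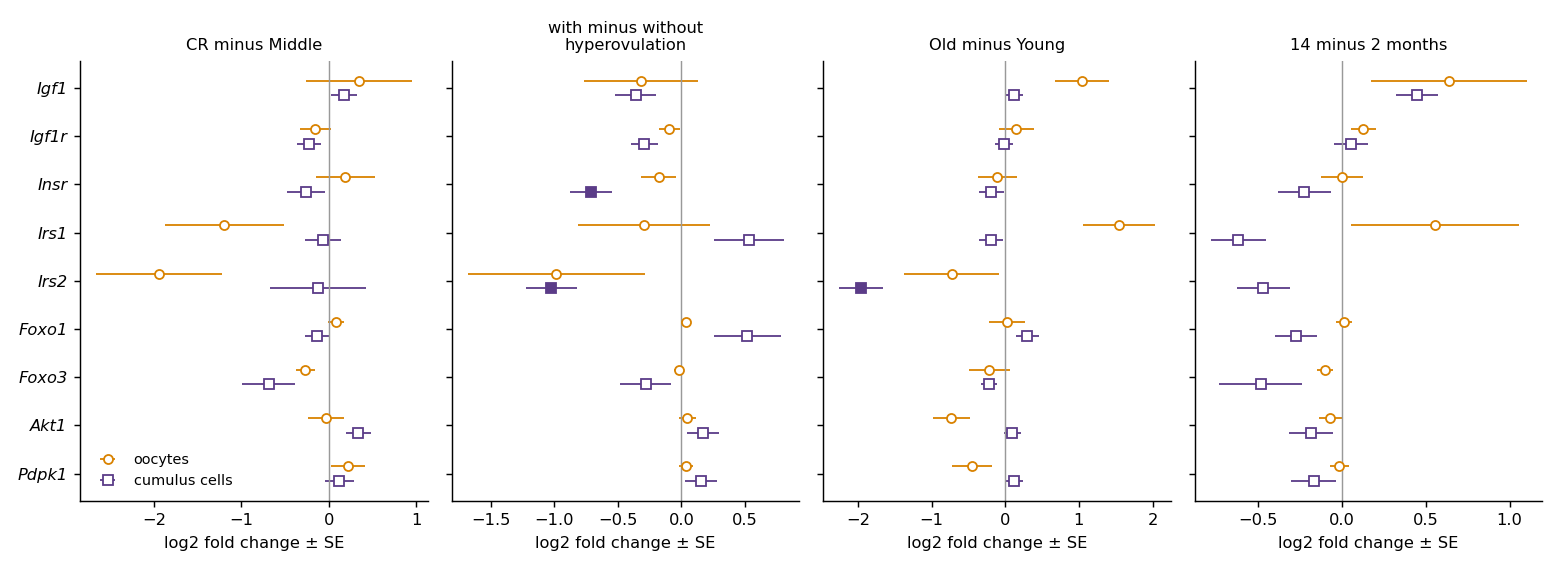
Log2 fold change ± SE on mouse sums for the 9 genes in oocytes (circles) and cumulus cells (squares) in 4 comparisons, filled where called, each panel with its own axis. Filled are Insr and Irs2 with hyperovulation and Irs2 from Young to Old, all in cumulus cells, and Irs2 in oocytes from 2 to 14 months is not drawn, since all mice of 14 months were at 0.

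Between the cell types the pathway list is given by role, and no test compared the roles. In the second set 80 of the 83 genes were tested, and 28 were called higher in oocytes and 46 in cumulus cells, beside 88.4% of all genes called, so the count is near the background. Of 10 PI3K subunits and regulators 7 were higher in oocytes, the catalytic Pik3ca, Pik3cb and Pik3cd and the inhibitor Pik3ip1 among them. Pik3cg, also catalytic, was higher in cumulus cells, as were Pik3r2 and Pik3r5. Of 12 adaptors 10 were higher in cumulus cells, and Grb10 and Irs4 in oocytes. Of 15 FOXO targets tested 12 were higher in cumulus cells, and Txnip, Trim63 and Cited2 in oocytes. In the first set 7 of 10 PI3K subunits and regulators were again higher in oocytes, and Pik3cg and Pik3r2 in cumulus cells. There 6 of 11 adaptors and 7 of 15 FOXO targets were higher in cumulus cells. In the first set 79 were tested, and 33 were called higher in oocytes and 32 in cumulus cells. This split depended on the scaling and was 27 to 38 under RLE normalization and 26 to 39 with DESeq2.

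Each member was paired with the gene whose log2(CPM + 1) was most like its own over the 30 mice of the second set, in the cell type where its mean CPM was higher. The points share libraries and depth, and the values are descriptions. The mice of all ages and those without hyperovulation are pooled, so differences between groups enter r. Group means of Irs2 in cumulus cells ran from 75.2 to 213.8 CPM. In cumulus cells Irs2 was closest to Amotl2 (Pearson r = 0.96), Foxo1 to Dap (0.90) and Insr to Il17ra (0.89), of 10467 genes. Akt1 was closest to R3hdm4, Igf1r to Man2b1 and Irs1 to Prdm1 (0.83 each), and Igf1 to Prps2 (0.74). In oocytes Pdpk1 was closest to Col6a6 (0.80) and Foxo3 to Rnf26 (0.78), of 9444 genes.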

How the data were processed

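Single oocytes and cumulus pools were measured in 401 libraries. The authors trimmed reads, aligned them to GRCm38 by HISAT2 2.0.5, and obtained gene counts from GENCODE by featureCounts 1.5.1 with multi-mapped reads included (versions per the submitters' processing notes and methods). They deposited an expected count per gene and library, and 36.8% (first set) and 35.1% (second set) of nonzero values were not whole. The authors also deposited RPKM values. Gene lengths were recovered from the counts and RPKM values of the ad libitum libraries. With these lengths 100% of RPKM values of the same libraries followed from the counts within 0.1%, but 0.762% of those of the CR libraries. The deposited RPKM values had no other use.

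The design assumed whole counts. The estimated values were therefore summed per mouse label and cell type and rounded. Genes found in 5 or more libraries entered the test, run by edgeR 4.0.16 under R 4.3.3 (scaling by TMM, quasi-likelihood F test, Benjamini-Hochberg adjustment over all genes tested, called at adjusted p under 0.05). SE is the absolute log2 fold change divided by the square root of F. CPM and RPKM were calculated per mouse with TMM within a set and cell type. The 1 complex left out was judged from its markers, as the study also removed a pair without an oocyte. Scripts were tested on simulated data.

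The members, the lists and the tests were chosen with earlier results of these data known. Named are the 9 members, up to 6 called pathway genes of largest change and a mean of at least 8 CPM in the diet and hyperovulation comparisons, and the gene most like each member. Genes named by role between the cell types were chosen after their values were seen. Alternatives were libraries as units, DESeq2 1.42.0, RLE, no filter, all deposited libraries, thinned CR libraries, oocyte libraries with cumulus markers up to 10%, the label prefix B1 or B2 as covariate, the mouse as a replicate block, and each mouse label left out. The mouse pairs oocyte and cumulus sums, since both come from the same animals by the labels. Reads carry no molecular identifiers, and the floor of 3 counts covers counting error only. The p-values measure the spread between mice, or between libraries where these are the units.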

Additional observations from a re-analysis of the deposited data

Results flagged for a closer look

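Of 107 groups of 4 to 10 mice tested, 8 held a mouse far from the others of its group by Dixon's criterion, and chance flags about 1 in 20 groups. In cumulus cells Middle1 had 157.7 CPM of Irs1 against 97.7 CPM in the nearest Middle mouse, and 94.4 CPM of Irs2 against 27.7 CPM, with cumulus markers at 104% of the median cumulus level. Middle3, which rests on 1 complex, had 83.4 CPM of Pdpk1 in cumulus cells against 126 CPM in the nearest mouse. Mouse 4mo26 had 217 CPM of Insr in cumulus cells against 134 CPM, with cumulus markers at 75.5%. Mouse 14mo41 had 94.7 CPM of Irs2 in cumulus cells against 74.3 CPM. In oocytes 4mo29 had 1189 CPM of Foxo3 against 1109 CPM, 14mo38 had 7.59 CPM of Insr against 9.90 CPM, and 2mo36 had 0.495 CPM of Irs2 against 0.116 CPM, where the level is near that of single counts.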

How the results depend on the processing

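Of 254 counts of members called under an alternative, 229 stayed within 1.5 times the main count and 25 moved. Of 260 values of members called, 246 kept their direction and call and 0 reversed. The other 14 kept their direction but lost the call, all with hyperovulation and 1 mouse left out. Insr lost it in 11 of 13 such fits and Irs2 in 3 of 13. Most of the 260 values compare oocytes with cumulus cells, where 81.4% and 88.4% of all genes were called. The total therefore says little about calls with age or hyperovulation. With libraries as units, members called were 2 between Middle and CR in oocytes and 1 in cumulus cells, 1 from Young to Old in oocytes, 3 from 2 to 14 months and 6 with hyperovulation in cumulus cells, and 1 in each test of the difference between cell types (Akt1 with CR, Foxo1 with hyperovulation). Without the filter on low counts they were 1 (Irs2) between Middle and CR in oocytes, 1 (Irs2) from Young to Middle in cumulus cells and 2 (Igf1 and Irs1) from Young to Old in oocytes. With 1 mouse label left out they ran from 0 to 1 between Middle and CR in oocytes, from 0 to 1 from Young to Middle in cumulus cells, from 0 to 5 from Young to Old in oocytes and from 0 to 2 with hyperovulation in cumulus cells. The cause was not tested. With the mouse as a replicate block, 9 members were called between the cell types in both sets and 0 in both tests of the difference, so the pairing changed no call of a member.

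Counts over all genes depend more on the setting. Between Middle and CR oocytes 2061 genes were called, 4 with all deposited libraries and 7552 with libraries as units, and 685 to 3417 with 1 mouse left out. In cumulus cells 0 were called, 0 to 903 under alternatives. Of the further pathway genes 8 were called between Middle and CR oocytes, 14 with DESeq2 and 27 with libraries as units, and with hyperovulation 3 in cumulus cells, 6 and 12. Of all genes, those called from Young to Old were 0 in oocytes (0 to 1635, and 0 to 4516 with 1 label left out) and 107 in cumulus cells (112 to 910, and 45 to 172), and with hyperovulation 223 in cumulus cells (216 to 3090, and 60 to 384). In the tests of the difference between cell types they were 30 for CR (3 to 3834) and 47 for hyperovulation (52 to 1199). From 2 to 14 months they were 43 in oocytes (45 to 224) and 39 in cumulus cells (44 to 356), and from 2 to 9 months 19 (19 to 55) and 2 (2 to 440). From 2 to 4 months 0 were called in oocytes (0 to 3) and in cumulus cells (0 to 115), from Young to Middle 0 (0 to 10) and 0 (0 to 328), and with hyperovulation in oocytes 0 (0 to 7). Leaving out 1 mouse in turn was not run for oocytes against cumulus cells in the second set. Groups of 2 to 4 mouse labels in the first set limit what its tests can show, and Igf1, Irs1 and Irs2 in oocytes lie near the floor of the counts.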
